A study of Mus musculus with 7 samples.

Results

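Isolated distal CNC peaks are Rad21 peaks of female mouse liver that overlap no CTCF peak, lie off transcript starts and stand apart from other such peaks. Rad21 is a core subunit of cohesin, and CNC stands for cohesin-non-CTCF. The 8014 members were chosen by the deposited peak calls, that is, selected on measured values of both antibodies. Each is an autosomal peak of the Rad21 list that shares not even 1 bp with a CTCF peak. Its summit lies more than 1 kb from every annotated transcript start and more than 12500 bp from the summit of any other such peak. They were 11.9% of the 67228 autosomal Rad21 peaks and 53.1% of the 15086 distal CNC peaks (95% Wilson interval 52.3 to 53.9%), out of 68656 Rad21 peaks in all. The remaining 7072 distal CNC peaks, called clustered here, have another distal CNC summit within 12500 bp and are the closest comparison. Further comparisons are 2780 promoter CNC peaks, at most 1 kb from a start, and 35789 distal CAC (cohesin-and-CTCF) peaks, which overlap a CTCF peak.

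The tissue was liver of 8-week-old female Crl:CD1(ICR) mice, an outbred stock, without treatment or engineered allele. Nuclei were isolated and then crosslinked, and chromatin was precipitated with an antibody to Rad21 (3 libraries) or to CTCF (4 libraries). The libraries of each antibody were pooled before peaks were called, so no value has an SD between mice. Intervals below cover counting error over peaks of 1 pool only, and peaks of a pool are not replicates. The lists hold no read counts, so the depth behind a single peak is unknown. Whole liver nuclei include those of cells other than hepatocytes, and the lists do not separate them.

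Cohesin is a ring-shaped complex that extrudes loops of chromatin until it meets a barrier, most often CTCF bound to its oriented motif. Cohesin is also found without CTCF at active enhancers and promoters, where it occurs with Mediator, the cohesin loader Nipbl and tissue-specific transcription factors. In hepatocytes these factors include FOXA and other forkhead proteins, HNF4A, C/EBP proteins, ONECUT1 and nuclear receptors.

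The first set of sequences shows members with 1 or more strings recognised by liver transcription factors. All are mm9, plus strand, from the NCBIM37 genome. The first 2 are among the 4 members whose 201 bp around the summit held 4 kinds of the 9 liver strings, and were chosen after their values were seen. Most of the 9 strings are listed further on. The others are the strongest members assigned to Nr2f2, Foxa1, Bcl6 and Prox1 (151 bp around the summit), each with at least 1 liver string. Not printed are the strongest members assigned to Trim24, Igf1, Nr5a2, Jak2, Tbx3 and Cux2, which held no liver string within 100 bp of the summit. Capitals mark matches to the liver strings.
Epas1 member, chr17:87086471-87086671: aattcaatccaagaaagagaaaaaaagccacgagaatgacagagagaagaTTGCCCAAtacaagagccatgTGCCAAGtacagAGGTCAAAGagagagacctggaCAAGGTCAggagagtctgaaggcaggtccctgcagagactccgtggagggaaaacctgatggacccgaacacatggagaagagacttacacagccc
Psd3 member, chr8:70605816-70606016: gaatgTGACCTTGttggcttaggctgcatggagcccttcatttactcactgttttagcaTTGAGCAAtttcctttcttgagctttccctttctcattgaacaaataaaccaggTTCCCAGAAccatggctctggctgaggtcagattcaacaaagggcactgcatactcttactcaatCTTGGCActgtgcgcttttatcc
Nr2f2 member, chr7:76968263-76968413: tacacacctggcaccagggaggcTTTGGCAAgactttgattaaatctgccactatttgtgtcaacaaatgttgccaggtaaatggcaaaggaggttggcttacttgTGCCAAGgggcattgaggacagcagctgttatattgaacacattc
Foxa1 member, chr12:58545446-58545596: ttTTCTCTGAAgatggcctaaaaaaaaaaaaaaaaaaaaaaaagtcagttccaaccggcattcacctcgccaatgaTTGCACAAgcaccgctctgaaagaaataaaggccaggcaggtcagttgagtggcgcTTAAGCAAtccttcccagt
Bcl6 member, chr16:24034717-24034867: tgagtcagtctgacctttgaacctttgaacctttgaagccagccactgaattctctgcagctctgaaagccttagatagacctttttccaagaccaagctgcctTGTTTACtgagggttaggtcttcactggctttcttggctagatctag
Prox1 member, chr1:191971888-191972038: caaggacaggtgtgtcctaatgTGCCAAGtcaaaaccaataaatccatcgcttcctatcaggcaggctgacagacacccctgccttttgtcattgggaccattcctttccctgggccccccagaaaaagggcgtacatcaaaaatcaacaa

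The intergenic Epas1 member, 66.7 kb upstream of that gene, held C/EBP, NFI, DR1 and NR5A2 strings at a fold enrichment of 5.49. The intergenic Psd3 member held NR5A2, C/EBP, STAT5 and NFI strings at a fold enrichment of 4.10. In the Foxa1 member, which lies in an intron of Mipol1 101.6 kb from the start of the pioneer factor gene Foxa1, 1 STAT5 and 2 C/EBP strings were found. The Bcl6 member carried 1 forkhead string, and the Prox1 member, in an intron of Prox1, carried 1 NFI string.

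The second set shows what stands under other members. The Gm9934 member had a high score with a CTCF matrix although no CTCF peak was called there, and its capitals mark the matrix match. The 5730522E02Rik member had the second highest fold enrichment of the class, and its capitals mark copies of ATTCC or its reverse complement.
Gm9934 member, chr7:101508135-101508285: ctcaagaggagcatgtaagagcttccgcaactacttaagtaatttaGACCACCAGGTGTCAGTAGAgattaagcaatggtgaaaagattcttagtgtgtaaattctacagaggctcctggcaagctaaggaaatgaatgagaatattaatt
5730522E02Rik member, chr11:25000086-25000236: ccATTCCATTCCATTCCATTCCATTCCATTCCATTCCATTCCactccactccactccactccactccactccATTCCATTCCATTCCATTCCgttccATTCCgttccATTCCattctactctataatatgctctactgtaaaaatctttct

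Strings bound by liver transcription factors were more frequent at the summits of isolated peaks than beside them. At least 1 of the 9 liver strings lay within 100 bp of the summit in 3071 of 8014 members (38.3%, 95% Wilson interval 37.3 to 39.4%). Windows of the same 201 bp centred 1000 bp to either side held one in 26.0% (25.3 to 26.7%). The difference was 12.3 percentage points (95% Newcombe interval 11.1 to 13.6). It had the same sign on 19 of 19 autosomes, where summit shares ranged from 33.3 to 42.7% and flanking shares from 22.4 to 29.0%. Members with 2 or more kinds of liver string numbered 615 (7.67%, 7.11 to 8.28%), against 3.12% of flanking windows.

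The strings were searched on both strands. HNF4 (CAAAGTCCA), a string of the hepatocyte regulator HNF4A, was found in 1.71% of members (1.45 to 2.02%) and 0.218% of flanking windows, which is 7.83 times as often. DR1 (AGGNCAAAG), read by HNF4A and by PPARA with RXRA, was found in 3.37% of members and 1.35% of flanks. NFI (TGCCAAG), for the nuclear factor I family, was found in 8.19% (7.61 to 8.81%) against 3.68%, and C/EBP (TTGCNNAA) in 13.4% (12.7 to 14.2%) against 8.29%. For C/EBP, the most frequent of the 9 strings at summits, the difference was 5.15 points (4.30 to 6.02). ONECUT (AATCAATA) was found in 2.01% against 0.923% and NR5A2 (CAAGGTCA) in 2.62% against 1.52%. The forkhead strings (TGTTTAC or TATTTAC) were found in 7.99% (7.41 to 8.60%) against 6.25%. STAT5 (TTCNNNGAA), read by the growth hormone effector STAT5 and by the repressor BCL6, did not differ beyond counting error (6.43% against 6.46%, difference −0.04 points, −0.69 to 0.63). Each of the other 7 liver strings given here had an interval of the difference above 0. The ninth string counts only in the share with any liver string. Strings can share letters. Among members, 11 held both HNF4 and DR1, in 5 of them with shared letters, and 16 held both NR5A2 and DR1, in 11 with shared letters. C/EBP and NFI were held together by 87 members and shared no letters.

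**Figure D1:**
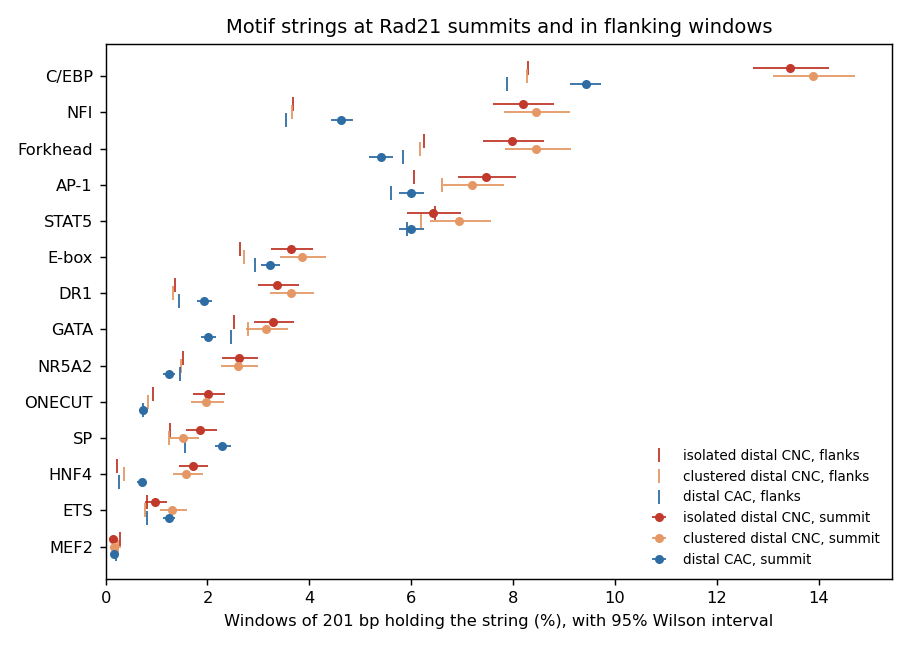
Share of 201 bp windows (horizontal axis, %) that hold each string, at summits (dots with 95% Wilson intervals) and in windows centred 1000 bp to either side (ticks), for isolated distal CNC (red), clustered distal CNC (orange) and distal CAC peaks (blue). The C/EBP dot of isolated peaks stands at 13.4% against a tick at 8.29%, and the red and orange dots lie close to each other for every string.

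Strings of factors that are not particular to liver were searched in the same windows, and their differences overlapped in size with those of the liver strings. AP-1 (TGANTCA), of the JUN and FOS proteins, was found in 7.46% of members against 6.05% of flanks, the string of GATA factors (AGATAAG) in 3.28% against 2.53%, the E-box CACGTG in 3.64% against 2.65% and SP (GGGGCGG) in 1.86% against 1.26%. ETS (CCGGAAG) was found in 0.961% against 0.811%, a difference whose interval held 0 (0.15 points, −0.09 to 0.42). MEF2 (CTATTTATA), a string of muscle and neuronal factors, was found in 11 members (0.137%) against 0.287% of flanks, the single string given here whose interval of the difference lay below 0 (difference −0.15 points, −0.26 to −0.02).

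Distal CAC peaks differed from isolated peaks in most of these strings. A liver string was present in 26.8% of distal CAC summits (26.4 to 27.3%), 11.5 points below isolated peaks (interval of the difference 10.3 to 12.6), and isolated peaks were higher on 19 of 19 autosomes. The forkhead, C/EBP and NFI strings were each more frequent in isolated than in distal CAC peaks on 19 of 19 autosomes. Promoter CNC peaks had fewer liver strings than isolated peaks, by 13.2 points (11.3 to 15.1), and isolated minus promoter CNC was −8.82 points for the SP string (−10.1 to −7.68).

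Clustered peaks differed from isolated ones by little in these strings. The share with any liver string was 40.3% (39.1 to 41.4%) in clustered peaks, and isolated minus clustered was −1.97 points (−3.53 to −0.404). Isolated peaks were the higher on 5 of 19 autosomes. With 50 bp to either side of the summit the difference was −0.86 points and its interval held 0 (−2.17 to 0.44). On even autosomes it was −2.43 points (−4.69 to −0.16), and among peaks with a fold enrichment of 3 to 4 in both classes −2.36 (−4.67 to −0.05). The interval again held 0 with a −log10 q of at least 10 (−2.77, −6.83 to 1.27) and with a neighbour distance of 25 kb (−1.53, −3.17 to 0.11). The ETS string was rarer in isolated peaks (−0.34 points, −0.69 to −0.003, with isolated peaks higher on 5 of 19 autosomes). STAT5 strings exceeded the flanks in clustered peaks (0.76 points, 0.06 to 1.48). None of the liver strings given here differed alone between the classes beyond counting error: for C/EBP the interval ran from −1.55 to 0.65 points, for forkhead from −1.35 to 0.41 and for HNF4 from −0.29 to 0.53.

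Matches to most of these strings were densest near the summits, while forkhead strings of isolated peaks were densest 150 to 200 bp before the summit (26.0 per 1000 peaks). HNF4 strings reached 4.87 per 1000 isolated peaks in the 50 bp just before the summit, against a median of 0.624 per 50 bp bin beyond 500 bp. NFI strings reached 23.3 per 1000 peaks just after the summit against 9.23 outside, and C/EBP strings 39.3 against 21.7. ONECUT strings were highest 100 to 150 bp before the summit (6.74 against 2.25). In distal CAC peaks, forkhead strings were also highest 150 to 200 bp before the summit (19.2 per 1000 peaks). There they were fewer in the central 100 bp (12.4 per 1000 peaks and bin) than beyond 500 bp (15.8). Isolated peaks had 20.1 forkhead strings in the centre and 17.4 outside. These bins were read off after the profiles were seen and were not tested.

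**Figure D2:**
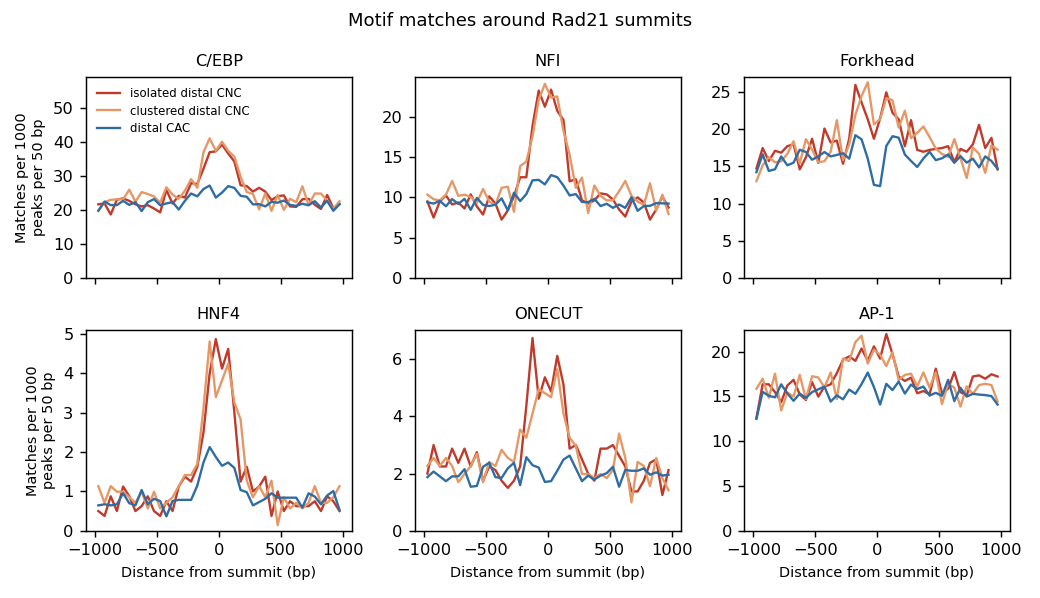
Matches to 6 strings per 1000 peaks in 50 bp bins (vertical axes, each from 0 and on its own scale) by distance from the Rad21 summit (horizontal axis, bp, plus strand), for isolated distal CNC (red), clustered distal CNC (orange) and distal CAC peaks (blue). The red and orange lines rise together around the summit, for HNF4 to 4.87 and 4.81 per 1000 peaks, and the blue line reaches 2.12.

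Words of 7 letters were also ranked with no list of factors. The ranking was by the excess at summits over flanks on odd autosomes, divided by its binomial standard error, and values come from the 3787 members of even autosomes. The first word, CTGCCAG, was held by 10.4% of these (9.42 to 11.4%) and by 4.09% of flanking windows. AGCTGGC, the fourth, was held by 9.66% against 3.49%, a ratio of 2.77. CTGCCAA, the second, was held by 7.95% against 3.25% and shares TGCCAA with the NFI string. Of the 10 leading words, 8 contain GCCA or its reverse complement TGGC, and GCAAACA, the ninth, reads TGTTTGC on the other strand, a form of the forkhead site (8.19% against 4.04%). All 10 words were more frequent at summits than in flanks of the even autosomes, with ratios from 1.57 to 2.77.

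Rad21 fold enrichment, the authors' ratio of signal at the summit over local background, comes from the same peak calling that chose the members. It is given as a description. Its median was 3.65 in isolated peaks (interquartile range 3.14 to 4.31), 3.40 in clustered, 3.15 in promoter CNC and 7.06 in distal CAC peaks. The isolated median was above the clustered one on each of the 19 autosomes. At least a fold enrichment of 5 was reached by 956 members (11.9%), and 10 or more by 16 (0.200%). On other measures of the calls the isolated class was not the higher. The median width was 296 bp in isolated and 315 bp in clustered peaks. A −log10 q of at least 10 was reached by 1983 members (24.7%) and by 26.5% of clustered peaks. The median −log10 q was 6.71 in isolated and 6.82 in clustered peaks.

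**Figure D3:**
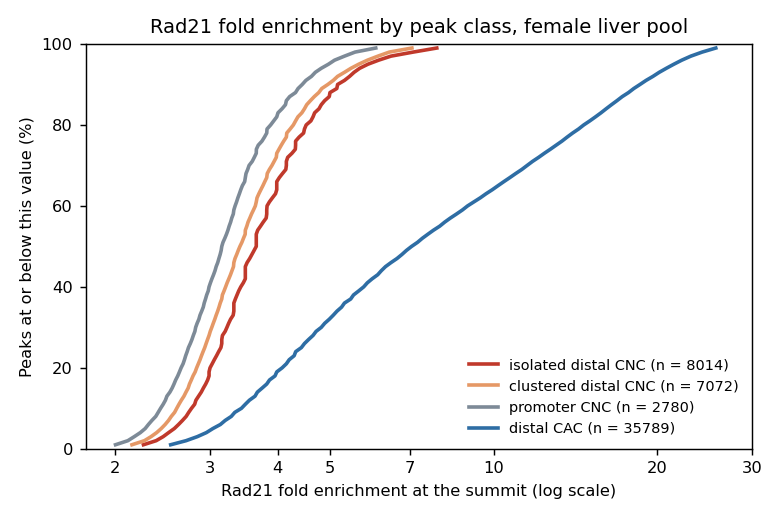
Cumulative share of peaks (vertical axis, %) by Rad21 fold enrichment at the summit (horizontal axis, log scale), from the first to the 99th percentile of each class. The isolated line (red) lies to the right of the clustered line (orange), with medians of 3.65 and 3.40, and far to the left of distal CAC peaks (blue), with a median of 7.06.

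When the members were divided into 4 equal groups by fold enrichment, liver strings increased and proximity to genes decreased from the weakest group to the strongest. A liver string was present in 33.6% of the 2004 weakest members (31.6 to 35.7%) and 43.3% of the 2004 strongest (41.2 to 45.5%), a difference of 9.68 points (6.67 to 12.7). C/EBP strings rose from 11.3 to 16.1% (difference 4.84 points, 2.72 to 6.97), forkhead from 6.54 to 9.68% (3.14 points, 1.46 to 4.84) and HNF4 from 1.20 to 2.25% (1.05 points, 0.24 to 1.89). The NFI string was held by 7.68% and 8.78%, with an interval of the difference that held 0 (−0.61 to 2.81), and DR1 by 3.59% in both groups. The intronic share fell from 60.8% (58.6 to 62.9%) to 42.2% (40.0 to 44.3%), and the share with a start within 5 kb fell from 30.6 to 11.5%. The median distance to the nearest CTCF summit was 2676.5 bp in the weakest and 11725.5 bp in the strongest group. Clustered peaks moved in the same directions, with liver strings in 36.2 and 46.0% and introns in 63.6 and 44.5% of their weakest and strongest groups.

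By annotation, most members lay in introns or between genes. Of the 8014 summits, 4202 were intronic (52.4%, 51.3 to 53.5%), 3466 intergenic (43.2%), 164 in coding exons, 122 in UTRs and 60 in exons of non-coding transcripts. Introns take 36.8% of the autosomal genome beyond 1 kb from a start and intergenic sequence 60.7%. The intronic share of clustered peaks was 54.0%, and isolated minus clustered was −1.53 points with an interval that held 0 (−3.12 to 0.07). The interval lay below 0 with a neighbour distance of 25 kb (−3.23, −4.90 to −1.55) and on even autosomes (−2.98, −5.27 to −0.68). With a −log10 q of at least 10 required, where the classes are rebuilt and 3147 peaks are isolated, this difference changed sign to 4.95 points (0.88 to 8.96). The median GC content within 100 bp of the summit was 48.8% in isolated and in clustered peaks, 55.7% in promoter CNC and 49.3% in distal CAC peaks. The flanks of isolated peaks had a median of 44.5%.

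The members were isolated from each other but often not from other Rad21 peaks. Their median distance to the nearest distal CNC summit was 35467 bp, against 4260 bp in the clustered class, as the rule fixes. A CAC summit lay within 12500 bp of 4737 members (59.1%, 58.0 to 60.2%), and a promoter CNC summit of 522 (6.51%). No Rad21 peak of any other class lay that near in 3190 (39.8%, 38.7 to 40.9%). The median distance to the nearest transcript start was 17579 bp. A start lay within 5 kb of 1437 members (17.9%), and none within 50 kb of 1838 (22.9%). Isolated peaks made up 50.4% (chromosome 18) to 57.4% (chromosome 14) of the distal CNC peaks of an autosome, and their density ran from 2.60 per Mb on chromosome 3 to 4.65 per Mb on chromosome 19.

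**Figure D4:**
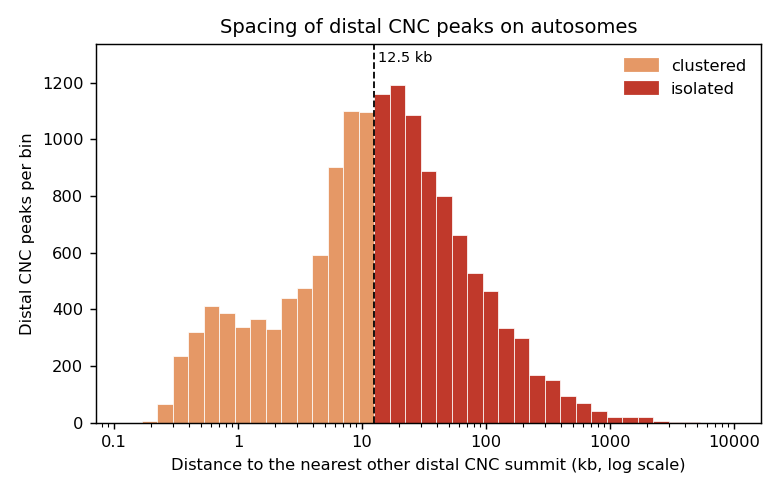
Number of distal CNC peaks (vertical axis) by the distance to the nearest other distal CNC summit (horizontal axis, kb, log scale). The dashed line marks the 12500 bp limit between the 7072 clustered (orange) and the 8014 isolated peaks (red), and it falls near the top of the distribution, with 1098 peaks in the bin below it and 1161 in the bin above.

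The limits cut through a continuous range. The members nearest the distance limit, at chr12:25950378-25950662 and chr14:64752662-64752988, had their neighbours 12501 and 12502 bp away and fold enrichments of 2.43 and 3.69. On the other side, the peaks at chr7:150619183-150619612 and chr17:46884853-46885067 had neighbours at 12495 and 12489 bp and fold enrichments of 5.68 and 2.91. Members with a start 1002 and 1004 bp away (chr5:100857361-100857595 and chr11:5399691-5399899) had fold enrichments of 3.20 and 2.18. The CNC peaks at chr7:54262735-54262929 and chr10:79793812-79794057, in introns of Spty2d1 and Reep6, were exactly 1000 bp from a start, which left them out, and had fold enrichments of 2.98 and 2.60.

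The absence of a CTCF peak was compared with CTCF motif content. A matrix of 20 bp learned at the 1000 strongest CTCF peaks of odd autosomes was scored on even autosomes, and the threshold for a match was set at 14.3 bits, so that 1% of 56317 windows beside the peaks passed it. It was reached in 151 of 3787 isolated peaks (3.99%, 3.41 to 4.66%) and in 42 of 3432 clustered peaks (1.22%, 0.907 to 1.65%), a difference of 2.76 points (2.05 to 3.51). Promoter CNC peaks had a match in 2.38% and distal CAC peaks in 53.0% (52.2 to 53.7%). Within the isolated class the share was 2.01% in the weakest group by fold enrichment and 5.39% in the strongest, with 4 groups of like size. It was 0.673% of the 446 members within 1 kb of a CTCF summit, 3.75% of the 2109 between 1 kb and 12500 bp, and 5.60% (4.45 to 7.03%) of the 1232 farther away.

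CTCF summits were near many members all the same. The median distance was 6812.5 bp, 994 members (12.4%) had a CTCF summit within 1 kb and 5419 (67.6%) within 12500 bp. With CTCF peaks of a −log10 q under 10 left out, the median distance was 10858 bp. The nearest was 101 bp away. Only 214 members (2.67%) were more than 100 kb from any CTCF summit, against 0.749% of clustered peaks. The Gm9934 member printed above, at chr7:101508066-101508372, was 313.5 kb from the nearest CTCF summit and 812.2 kb from any start. It lies on an odd autosome, among those on which the matrix was learned. Its matrix score was 18.97 bits and its fold enrichment 7.63. The other 2 of the 3 members farthest from any start lay on chromosome 19, also an odd autosome, at 888.5 and 765.9 kb, with fold enrichments of 4.64 and 3.32 and scores of 9.71 and 14.0 bits, below the threshold.

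The strongest members were not typical of the class. The highest fold enrichment, 28.4, belonged to a peak of 352 bp in an intron of Plxdc2, chr2:16604562-16604913, 44.4 kb downstream of the start. The second, 22.4, was an intergenic peak at chr11:25000002-25000353, 138.6 kb from any start. Next were a peak in an intron of Csda, chr6:131327413-131327763, with 13.9, and an intergenic peak 368.0 kb upstream of Arid1b, chr17:4626135-4626700, with 13.3. Of the 16 members at 10 or more, 3 held ATTCC or its reverse complement at least 8 times within 100 bp of the summit, among them the chromosome 11 and Arid1b members with 15 and 31 copies. Such arrays were present in 7 of all 8014 members, in 1 clustered peak, in 0 of 35789 distal CAC peaks and in 2 of 16028 flanking windows of members. A further 3 of the 16, among them the Csda and Auts2 members, held GGGATTACA, a string that 33 of all members (0.412%) and 0.424% of their flanks held. These strings were looked for after the sequences had been seen. Of these 16 members 2 held a liver string, against 418 of the 940 members between 5 and 10 (44.5%) and 37.6% of those under 5. Their median width was 444.5 bp. Without the 40 members that held such an ATTCC array or GGGATTACA, 7974 remained with a median fold enrichment of 3.65. Their liver string difference between summit and flank was 12.4 points (11.1 to 13.6).

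Other members of this leading group had neither an array of at least 8 ATTCC copies nor GGGATTACA. An intergenic peak of 803 bp at chr19:14333513-14334315, 194.3 kb from the start of the corepressor gene Tle4, had a fold enrichment of 11.3, a C/EBP string and a CTCF summit 0.756 kb away. Peaks 188.0 kb upstream of Id2, an inhibitor of helix-loop-helix factors, and 254.9 kb from Dhx15 had fold enrichments of 10.4 and 10.3. A peak of 368 bp 53.7 kb from Klf4, chr4:55490768-55491135, had 10.3, a GC content of 57.7% and a CTCF matrix score of 13.8 bits, just under the threshold.

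Each member was then assigned to the nearest protein-coding start, by distance alone. Of 21281 autosomal protein-coding genes, 4844 received at least 1 isolated peak (22.8%) and 2188 a clustered peak (10.3%). Both kinds were assigned to 1254 genes, which is 25.9% of the former and 57.3% of the latter. A single isolated peak was assigned to 3195 genes. The span of sequence nearest to the starts of a gene had a median of 110.3 kb in genes with an isolated peak. It was 35.2 kb in the others. Whether span accounts for the number of peaks assigned was not tested.

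Genes of growth hormone signalling, which sets much of the sex difference of liver, had isolated peaks in 15 of 19 cases (78.9%), above the 22.8% of all genes, and clustered peaks in 13 (68.4%), above the 10.3% of all genes. Their median span was 131.0 kb, against 44.6 kb for all genes. Igf1, the main hormone made under growth hormone, had 7 isolated peaks with fold enrichments of 3.35 to 8.01, and 7 clustered peaks. Its strongest member, chr10:87250266-87250638, is intergenic, 70.6 kb upstream of the start. Trim24, a cofactor gene, had 6, the strongest in its own intron 6.22 kb from the start (8.48, chr6:37876671-37877156). The kinase gene Jak2 had 1 in its intron (5.01, chr19:29359874-29360283), and Cish and Socs2, feedback inhibitors of the pathway, had 1 each at 4.31. The intronic member of Cux2, a repressor more expressed in female liver, lay 1.08 kb from a start with a fold enrichment of 4.30. The receptor gene Ghr had 1 isolated and 14 clustered peaks, and Bcl6 had 3 and 9. Igfbp1, Igfals and Lepr had 0 isolated and 2, 1 and 4 clustered peaks, and Stat5a had neither kind. With assignment to every gene with a start within 25 kb, 9 of the 19 genes had an isolated peak (47.4%), against 22.5% of all genes.

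Liver transcription factor genes had isolated peaks in 20 of 32 cases (62.5%) and clustered peaks in 14 (43.8%), against 22.8% and 10.3% of all genes. Their median span was 87.1 kb, against 44.6 kb, and by a start within 25 kb the count was 17 of 32, against 22.5% of all genes. Nr5a2, a nuclear receptor of bile acid synthesis, had 5 with a maximum of 5.81 at chr1:138930982-138931591, 74.5 kb upstream, besides 12 clustered peaks. Gata4 had 5 isolated and 0 clustered peaks, Onecut2 had 3 and 0, and Prox1 had 3 and 2. Foxa2 had 2 isolated and 14 clustered peaks, and Onecut1 had 0 and 11. Hnf4a had 1 weak member, 1224 bp from a start (2.63). The strongest members of Tbx3, Nr2f2 and Foxa1 had fold enrichments of 4.80, 4.48 and 4.43 and lay 370.4, 537.1 and 101.6 kb from the starts. Foxa3, Cebpb, Nr1h3, Nr1i3, Nr0b2, Esrra, Creb3l3 and Nr2f1 had neither kind of peak.

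Genes of glucose and lipid metabolism had isolated peaks in 28 of 41 cases (68.3%) and clustered peaks in 13 (31.7%), against 22.8% and 10.3% of all genes, with a median span of 53.3 kb. These included the gluconeogenic genes G6pc (2 isolated peaks, nearest 5209 bp, strongest 4.94), Fbp1 (2, nearest 5452 bp, strongest 7.92) and Pck1 (1, strongest 3.06). Ppargc1a, a coactivator of gluconeogenesis, had 7 isolated peaks and 0 clustered ones, and the fatty acid elongase gene Elovl6 had 6 and 7. Xenobiotic genes were assigned isolated peaks in 13 of 25 cases (52.0%), among them Cyp2c29 at 2296 bp (4.74) and Slco1b2 with 2, and clustered peaks in 6, at a median span of 47.1 kb. Urea cycle and amino acid genes had isolated peaks in 9 of 21 cases (42.9%), among them Ass1 with 2, and clustered peaks in 7, at 38.6 kb. Genes of secreted plasma proteins had them in 17 of 59 cases (28.8%), against 22.8% of all genes, and clustered peaks in 15 (25.4%), against 10.3%. Their span was short, with a median of 26.1 kb, and by a start within 25 kb the count was 28 of 59 (47.5%). Apob and Apoh each had 2 isolated peaks, beside 8 and 13 clustered ones. With a −log10 q of at least 10 required, 10.2% of all genes had an isolated peak. The counts were then 10 of 32 for liver transcription factors, 12 of 41 for glucose and lipid metabolism, 4 of 25 for xenobiotic genes (16.0%), 4 of 21 for urea cycle and amino acid genes, 9 of 59 for plasma proteins and 10 of 19 for growth hormone signalling.

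Marker lists of other liver cells are short, so the intervals of their shares are wide and overlap. Markers of sinusoidal endothelium had isolated peaks in 7 of 12 cases (58.3%, 32.0 to 80.7%), among them Stab2 with 4 and Dpp4 with 2. The endothelial markers Lyve1, Clec4g, Mrc1, Tek and Tie1 had no isolated peak. Kupffer cell markers had them in 1 of 10 cases (1.79 to 40.4%), stellate cell markers in 2 of 10 and cholangiocyte markers in 2 of 6, where Sox9 had 4. Neuronal genes, listed as a contrast to liver, had them in 4 of 19 (21.1%) against 22.8% of all genes, at the longest median span of the lists, 169.1 kb. Of 1106 olfactory receptor genes, 10 had an isolated peak (0.904%), at a median span of 22.0 kb against 44.6 kb for all genes. By a start within 25 kb, 16 of the 1106 had one (1.45%). The median spans were 106.9 kb for endothelial, 61.2 kb for Kupffer cell, 98.2 kb for stellate cell and 89.4 kb for cholangiocyte markers. By a start within 25 kb, endothelial markers had one in 5 of 12 cases, neuronal genes in 1 of 19, and Kupffer and stellate cell markers in 0 of 10 each, against 22.5% of all genes. With a −log10 q of at least 10, neuronal genes had one in 3 of 19 (15.8%) and endothelial markers in 4 of 12, against 10.2% of all genes. Which cells the peaks come from was not tested.

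**Figure D5:**
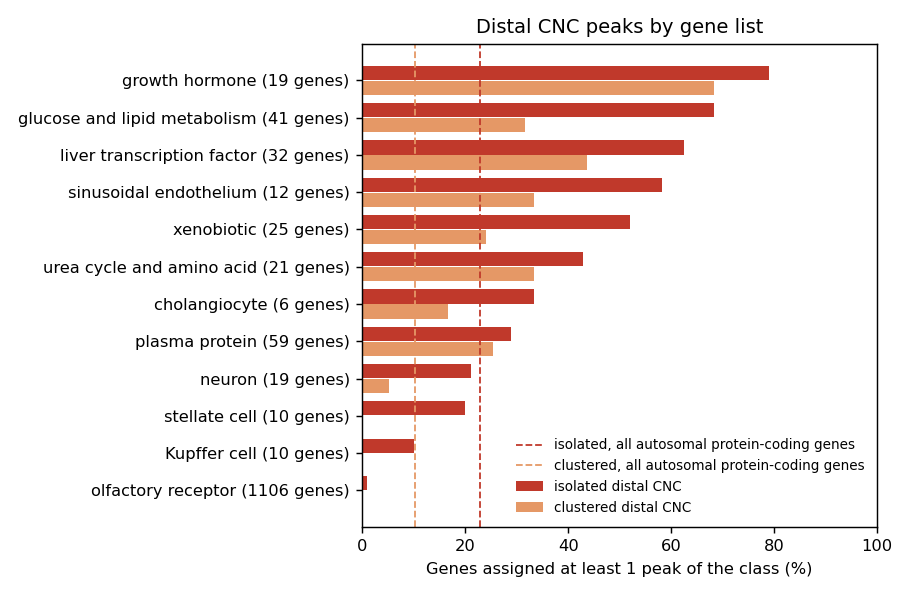
Share of genes in each list (horizontal axis, %) assigned at least 1 isolated (red) or clustered (orange) distal CNC peak by nearest start. The dashed lines give all autosomal protein-coding genes, at 22.8% and 10.3%, and the growth hormone list stands highest for both, at 78.9% and 68.4%.

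The genes with most isolated peaks were picked after the counts were seen. Myc and Sox5 had 15 each, Maf and Ptprg 13 each and Zfp608 12. The members of Myc lay 30335 to 862085 bp from its start, 9 of them in introns of other transcripts and 6 between genes, and reached fold enrichments of 2.83 to 9.23. The members of Sox5 lay 8148 to 385426 bp from a start at 2.63 to 5.60, and 12 of the 15 were intronic. Arhgap26, Arid1b, Esrrg and Zbtb20 had 11 each, and of these Zbtb20 and Esrrg also had 12 and 10 clustered peaks.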

How the data were processed

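Livers of 8-week-old female mice gave 4 CTCF and 3 Rad21 ChIP-seq libraries. Per the submitters' processing notes, alignment used Bowtie2 on mm9 and peak calling used MACS2. The authors pooled the uniquely aligned reads of each antibody first, and filtered the calls against a blacklist and against stacks of identical reads. The deposited values are a fold enrichment over local background (a ratio), −log10 of p (not used) and q, and a score derived from q. They were used as deposited. The depth per library is not part of the lists.

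Classes, distances and places were computed from the NCBIM37 genome and GENCODE vM1, whose chromosome lengths hold all peaks. Strings were searched within 100 bp of summits and 1000 bp to either side. Shares have Wilson intervals, differences Newcombe intervals and medians order-statistic intervals (95%), in Python 3.11.15 with scipy 1.17.1, numpy 2.4.6 and pandas 2.3.3. The class rule, intervals and motif steps were tested on simulated data. Where a count was 0, up to 3 of the total remain possible. Introns and exons of any annotated transcript were used, and exons took precedence.

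The members and lists were chosen with earlier results of these data known. Named were the 12 strongest members off chromosome 18, the strongest member of each listed liver transcription factor or growth hormone gene (at most 12), the 3 farthest from a start, and those nearest each limit. Other genes named as examples were picked after their values were seen. Alternatives were stricter peak calls, other distances, overlaps, windows, chromosomes and motif thresholds. Leaving out peaks with ATTCC arrays or GGGATTACA was added after seeing the data. No column of a single library was left unused (0). Values of 1 of the liver strings, 1 gene and several sequences are not reported here.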

Additional observations from a re-analysis of the deposited data

How the results depend on the processing

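The 8014 isolated peaks became 3147 with −log10 q of at least 10 in the Rad21 list, 5189 with a neighbour distance of 25 kb and 3190 when any Rad21 peak counted as a neighbour. Overlap of 50%, 5 kb limits and leaving out repeated strings kept the count within 1.5 times. With the stricter q, the median fold enrichment was 4.91, the median distance to a CTCF summit 7065 bp and the genes with an isolated peak 2181. Among the original members of even autosomes that met it (951), the CTCF motif share was 4.94%. The distance became 10858 bp when weaker CTCF peaks were left out. Within 50 bp of summits, median GC content was 49.5% and the CTCF motif share 4.83%. Within 100 bp, the latter was 12.2% at a 5% background rate.

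The difference in intronic share between isolated and clustered peaks (−1.53 points) turned to 4.95 with the stricter q. It was −3.23 with 25 kb and −2.98 on even autosomes, both with intervals below 0. The difference in liver strings between these classes (−1.97 points) was −0.86 within 50 bp, −2.77 with the stricter q and −1.53 with 25 kb, each with an interval that held 0. On even autosomes (−2.43) and at a fold enrichment of 3 to 4 (−2.36) the interval stayed below 0. The cause was not tested. The excess of liver strings at summits over flanks stayed above 0 in every alternative, from 7.13 points (50 bp) to 17.0 points (stricter q).

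No paired analysis was possible because each list is 1 pool without columns for single libraries. For the same reason no single library was left out in turn, and variation between mice was not measured. A region without a peak was below the caller's threshold, which depends on depth.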
